A study of Mus musculus with 6 samples.

Results

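Kinesins are motor proteins that use ATP to walk along microtubules or to take microtubule ends apart. Mitotic kinesins build, slide and shorten the spindle, move chromosomes and complete cytokinesis. Ciliary kinesins carry cargo along the axoneme of cilia and sperm tails, or regulate the axoneme itself, and transport kinesins carry vesicles, organelles and RNA through the cytoplasm. In the gonad all of these jobs meet, since germ cells divide, pass through meiosis and, in the male, grow a flagellum. All genes whose platform symbol begins with Kif followed by a digit were taken, from probe sets with 1 gene symbol, which gave 37 kinesin genes of 18193 genes in all. They were sorted by symbol into 12 mitotic, 8 ciliary and flagellar, and 17 transport and other cytoplasmic kinesins. Kinesins named otherwise, such as Cenpe and the Kifc genes, lie outside this rule, and Kif19a, which was listed as ciliary, was not analysed here.

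RNA came from whole gonads of C57BL/6 mice, and no group carried a treatment or an altered allele in the labels. There were 6 groups: fetal ovary and fetal testis at 15.5 days post coitum (dpc), neonatal ovary and neonatal testis at day 1 after birth, and adult ovary and adult testis at 10 weeks. The series is titled as a search for genes that act in chromosome segregation at the first meiotic division. Each group is 1 Affymetrix Mouse 430 2.0 array, so no difference has a replicate check, a test or an error, and the number of animals behind each array is not given in the labels.

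Values are probe-set signals in arbitrary units after each array was scaled to a common trimmed mean. A signal below 75.3, the median of all signals, counts as at the floor. A gene was called higher or lower where 2 arrays differed at least 4-fold after the floor was applied, and a ratio against a group at the floor is a lower bound. For a gene with several probe sets, the one with the highest mean signal over the 6 arrays was used. Signals of different genes rest on different probes and are not set against each other. Medians of log2 ratios, for a class or all genes, take genes above the floor on 1 or both arrays compared, unless said otherwise. Of the 37 kinesins, 34 exceeded the floor on 1 array or more and 24 on all 6, against 15282 and 9425 of the 18193 genes. Kif14 (cytokinesis), Kif15 (spindle bipolarity) and Kif28 were at the floor on all 6 arrays.

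The tissue labels were checked on marker genes. In the fetal pair 7 of 8 meiotic prophase markers were called higher in the ovary. In the neonatal pair 7 of 8 oocyte markers were higher in the ovary and 5 of 6 Sertoli cell markers were higher in the testis. In the adult pair 3 of 3 granulosa cell markers were higher in the ovary and 10 of 10 spermatid markers were higher in the testis, where their summed signal was 88805 against 201 to 372 on the other 5 arrays. The 3'/5' signal ratio of Gapdh, a measure of RNA integrity, was 3.12 for the neonatal ovary array, 2.36 for the adult testis array and 1.32 to 1.45 for the other 4. That of Actb ordered the arrays otherwise, with 1.81 for adult testis, the lowest, 3.28 for neonatal ovary and 2.91 to 3.79 for the other 4. The part of cell makeup and of RNA integrity in the differences given here was not tested.

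A motif of cell division genes was present mostly in promoters of the mitotic class. RefSeq windows on build GRCm38.p6, 250 bases before to 50 after the start (300 bases), were at hand for 31 of the 37 kinesins, 35 windows in all since some genes have a pair of starts. Kif5a, Kif5b, Kif13b, Kif20a, Kif21b and Kif28 had none. The cell cycle genes homology region (CHR), searched as TTTGAA on both strands, is the element through which the DREAM complex represses genes of cell division outside of G2 and mitosis. It was present in 9 of 11 windows of mitotic kinesins, 1 of 9 of ciliary kinesins and 2 of 15 of transport kinesins, against 17.9% of 32851 promoter windows. The mitotic genes with it were Kif2c, Kif4, Kif11, Kif14, Kif15, Kif18b, Kif20b, Kif22 and Kif23, and those without it were Kif18a and Kif2b. In Kif11, Kif22 and Kif15 a match began 19, 17 and 19 bases before the start. The 110 bases before the start are shown for 5 genes. Kif11, Kif22 and Kif2c show a match near and far from the start, Kif2b is a mitotic gene without one, and Kif17 is a ciliary gene with another motif. They are printed with the CHR (here as its reverse complement, TTCAAA) in capitals for Kif11, Kif22 and Kif2c, and the cAMP response element (CRE) in capitals for Kif17.

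Kif11, chr19:37376272-37376381, plus strand: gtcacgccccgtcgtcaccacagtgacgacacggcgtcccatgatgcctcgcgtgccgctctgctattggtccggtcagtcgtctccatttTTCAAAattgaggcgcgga

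Kif22, chr7:127042421-127042530, minus strand: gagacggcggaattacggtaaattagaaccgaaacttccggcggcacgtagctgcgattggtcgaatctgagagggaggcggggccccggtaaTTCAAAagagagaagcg

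Kif2c, chr4:117178773-117178882, minus strand: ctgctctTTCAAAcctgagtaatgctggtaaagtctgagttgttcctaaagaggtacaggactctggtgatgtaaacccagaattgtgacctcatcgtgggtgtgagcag

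Kif2b, chr11:91577556-91577665, minus strand: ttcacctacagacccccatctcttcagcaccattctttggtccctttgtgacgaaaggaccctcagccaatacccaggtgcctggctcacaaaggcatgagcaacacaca

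Kif17, chr4:138262141-138262250, plus strand: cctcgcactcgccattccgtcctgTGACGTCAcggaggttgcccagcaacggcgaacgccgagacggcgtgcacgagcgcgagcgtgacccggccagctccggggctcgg

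The CRE, searched as TGACGTCA, is bound by CREB and, in round spermatids, by CREM. It was found in 3 of 35 kinesin windows (Kif17, Kif5c and Kif18a), against 1.79% of all windows. The X-box, the element of RFX factors in ciliary genes, was searched on both strands in a form with a free spacer and a form with a fixed spacer. Neither was in any of the 35 kinesin windows, against 0.0457% and 0.128% of all windows. No kinesin window held both a CHR and a CRE. A match is a run of letters, and binding was not measured.

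**Figure D1:**
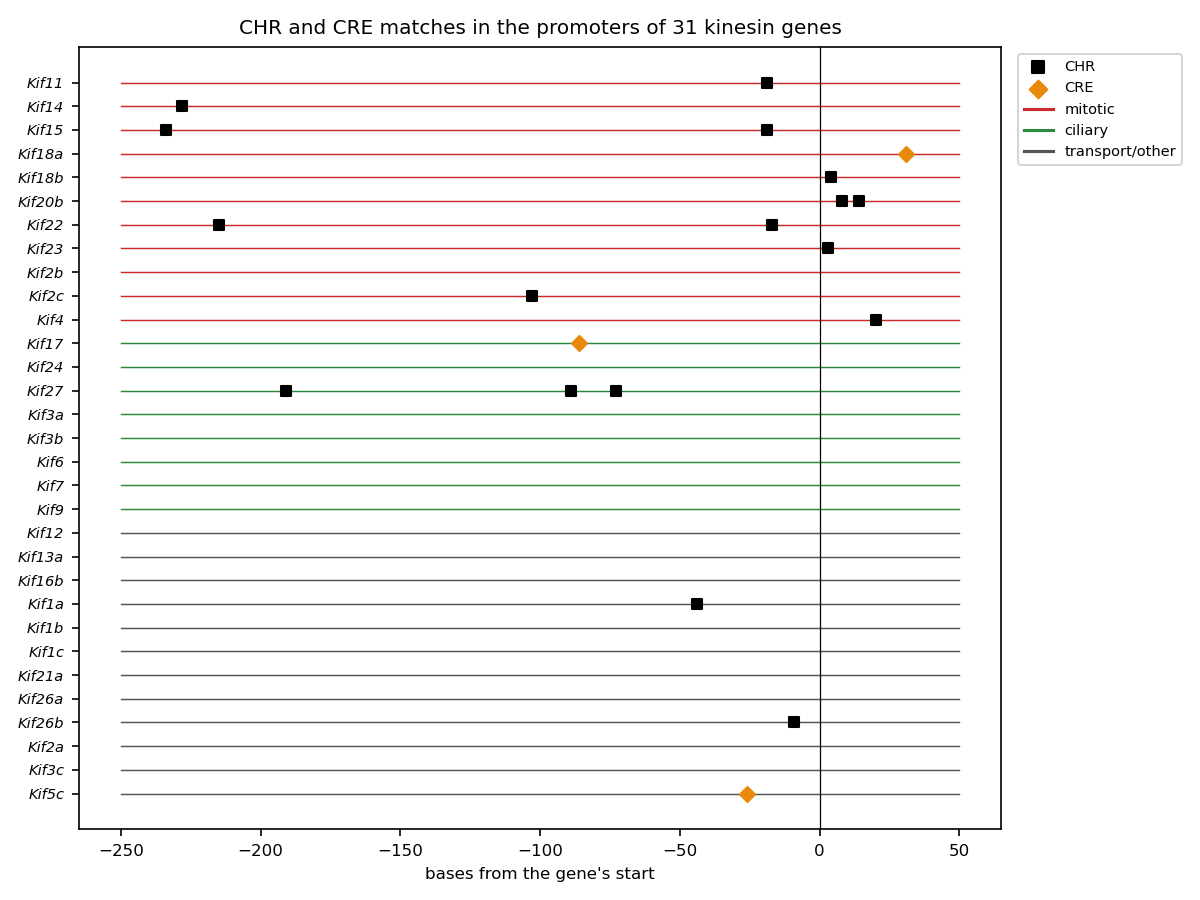
CHR and CRE matches in the promoter windows of 31 kinesin genes. Each line is 1 gene with all its windows, the horizontal axis is the distance from the start in bases, the lines are grouped by class, and 9 of 11 mitotic genes carry a CHR match, as does 1 of 8 ciliary genes.

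Before birth no kinesin was called between the sexes. Fetal ovary and fetal testis gave 0 kinesins higher and 0 lower in ovary, where 0.192% of all genes were higher and 0.440% lower. The log2 ratios of ovary to testis ran from -0.41 to 0.64, and the class medians were -0.18 for mitotic, 0.13 for ciliary and 0.14 for transport kinesins, against 0.02 for all genes. Between fetal and neonatal testis no kinesin was called either (0 higher, 0 lower), against 0.357% of genes higher and 0.440% lower. The nearest was Kif26b, a kinesin without motor activity that acts in Wnt signalling and in kidney development, which was 3.73-fold lower at birth in the testis.

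Kif9 was the one kinesin called between the neonatal gonads and between fetal and neonatal ovary. Kif9 encodes a kinesin of the central apparatus of motile cilia and sperm tails. Its signal was 389 in neonatal ovary and at the floor on both fetal arrays, in neonatal testis and in adult ovary. It was at least 5.17-fold higher in neonatal ovary than in fetal ovary or neonatal testis, and at least 5.17-fold lower in adult than in neonatal ovary. Of all genes 1.40% were higher and 0.962% lower in neonatal ovary than in testis, 0.759% were higher and 0.231% lower in neonatal than in fetal ovary, and 1.48% were higher and 1.89% lower in adult than in neonatal ovary. In each of these comparisons 1 of 37 kinesins was called.

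Of 9 markers of duct and multiciliated epithelium, 5 were called higher in the ovary of the neonatal pair, against 1.40% of all genes, and all 5 are duct or general epithelial genes. The summed signal of the list was 13583 in neonatal ovary and 1927 in neonatal testis. These 5 were Ovgp1 (oviductal glycoprotein), at 25.9-fold, the keratins Krt18, with 4779 in ovary and 531 in testis, and Krt8, at 6.60-fold, Cdh1 (E-cadherin), at 6.24-fold, and Pax8 (a duct transcription factor), at 4.37-fold. The ciliogenesis factor Foxj1 and the axonemal genes Dnah5 and Tekt1 were at the floor in neonatal ovary, while Rsph1 gave 163 there and 189.9 in neonatal testis. Nerve markers had a summed signal of 12860 in neonatal ovary and 2047 in neonatal testis, with 4 of 10 called higher and 1 lower, the neuronal tubulin Tubb3, at the floor in ovary and 384 in testis. The part of these tissues in the Kif9 difference was not tested.

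Other kinesins differed between the neonatal gonads by less than the call. Kif26b gave 487.5 in neonatal ovary and 124 in neonatal testis, a ratio of 3.92. Kif16b, an endosomal kinesin, gave 912 and 407. Kif21b, a regulator of microtubule growth, gave 355 and 825. The class medians of ovary over testis were -0.09 for mitotic, 0.63 for ciliary and 0.10 for transport kinesins on the log2 scale, against 0.07 for all genes.

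The adult testis set kinesins apart by class. Against neonatal testis, 5 of 37 kinesins were called higher (Kif2b, Kif9, Kif17, Kif27 and Kif3b), where 10.7% of all genes were. Called lower were 4 of 37 (Kif5b, Kif13a, Kif1c and Kif26a), where 10.3% of all genes were. Taken over all classes, both counts were near the shares of all genes. Ciliary kinesins were 4 of the 5 higher ones, and transport kinesins all 4 of the lower ones. Adult ovary against adult testis gave 3 kinesins higher and 9 lower in ovary, against 11.9% and 10.9% of all genes. Those lower in ovary were 5 ciliary (Kif3a, Kif3b, Kif9, Kif17 and Kif27) and 4 mitotic kinesins (Kif2b, Kif18b, Kif20a and Kif20b), and those higher were the transport kinesins Kif5b, Kif13a and Kif1c. Both comparisons share the adult testis array. In whole gonads, fewer cells of a type and less RNA per cell cannot be told apart.

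**Figure D2:**
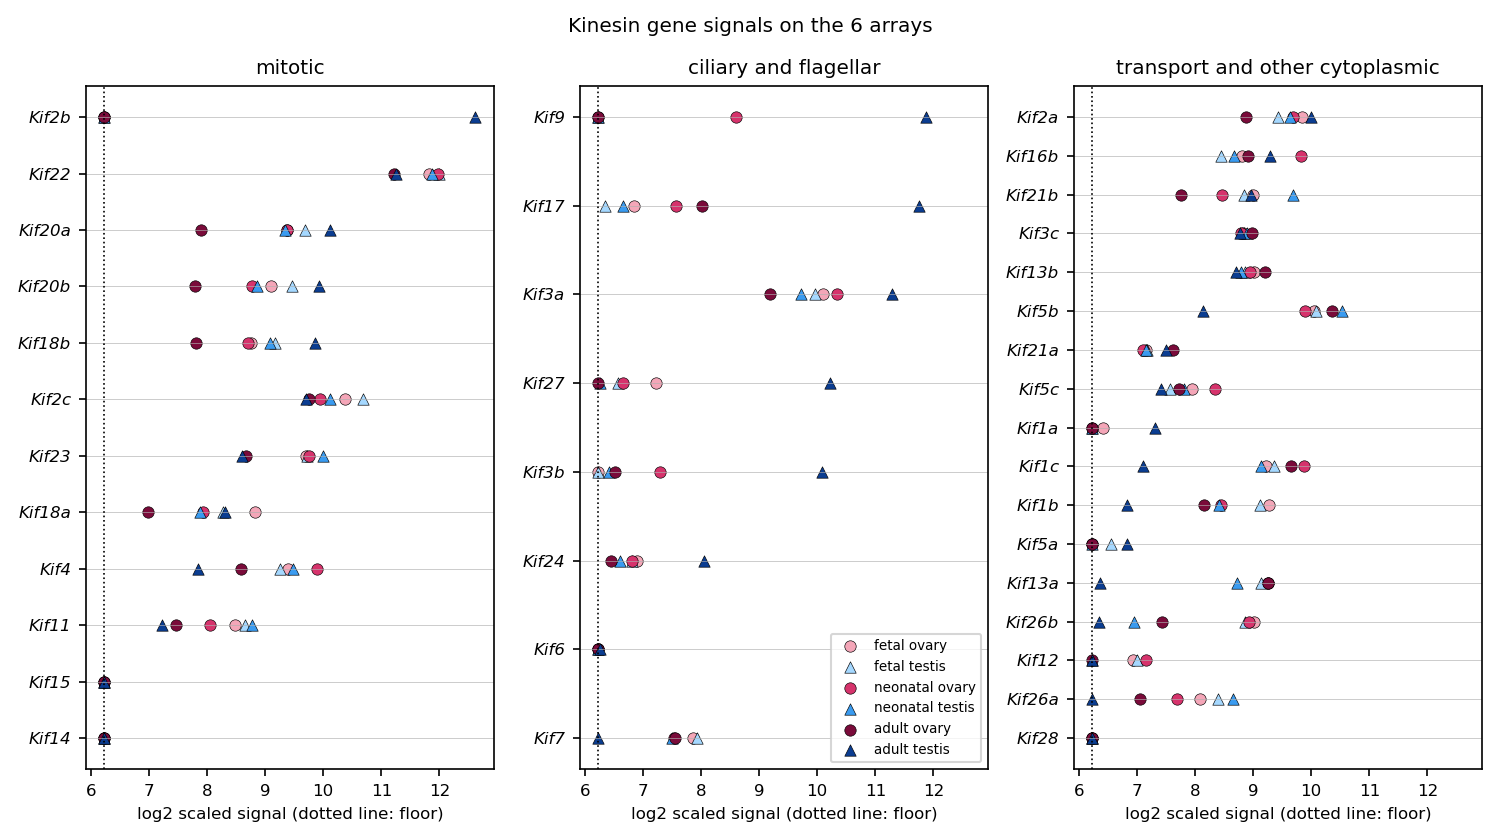
Scaled signal of each kinesin on the 6 arrays, grouped by class, on a log2 axis with the floor of 75.3 as a dotted line. Ciliary kinesins such as Kif9 and Kif17 are brightest on the adult testis array, at 3751 and 3443, and Kif5b is dimmest there, at 281.

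Each called kinesin kept its direction under the 3 other scalings, but the number called differed. Scaled instead to the spiked hybridization controls, which were 1169.6 on the adult testis array and 2469 in neonatal testis, the adult over neonatal testis split became 12 higher and 0 lower kinesins, and 3933 genes higher and 405 lower in all. The adult ovary over testis split became 0 higher and 14 lower, and 759 higher and 3361 lower among all genes. That scaling moved the median ratio of all genes above the floor on both arrays by 1.27 in the first comparison and by -0.95 in the second (log2). Class medians are therefore given beside the median of all genes.

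Ciliary and flagellar kinesins were the class with the largest shift in adult testis. Their median log2 ratio of adult over neonatal testis was 2.62, against -0.30 for all genes, and of adult ovary over testis -2.84, against 0.35. The adult testis array was the brightest for 7 of 8, against 30.3% of all genes. Kif7 was the exception, and was brightest in the fetal testis.

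Kif9 gave 3751 in adult testis and was at the floor in neonatal testis and adult ovary. This is at least 49.8-fold higher than in either. Kif17, a homodimeric kinesin-2 that in the testis also carries the CREM coactivator ACT, gave signals of 115, 81.2, 191, 100.5, 258 and 3443, in the order fetal ovary, fetal testis, neonatal ovary, neonatal testis, adult ovary and adult testis. It stood highest by far in adult testis, 34.3-fold over neonatal testis and 13.3-fold over adult ovary. Its other probe sets gave 27.2-fold and at least 23.4-fold over neonatal testis.

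Kif27, a paralogue of Kif7 linked to motile cilia, gave 149, 95.5, 100.8 and 77.1 on the fetal and neonatal arrays and 1189 in adult testis, with the adult ovary at the floor. It was 15.4-fold higher than in neonatal testis and at least 15.8-fold higher than in adult ovary. A second probe set for Kif27, which also names Gm26555 and was not used, gave 223 in adult testis and stayed under the floor elsewhere. Both probe sets were brightest on the same array.

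Kif3a and Kif3b are the motor pair of heterotrimeric kinesin-2, the anterograde motor of cilia. By the probe set used, Kif3b gave 157, 85.4, 91.9 and 1088 in neonatal ovary, neonatal testis, adult ovary and adult testis. That probe set was at the floor on both fetal arrays, as was another. The remaining ones gave 180 and 186 in fetal ovary and 184 and 187 in fetal testis. By the probe set used, Kif3b was 12.7-fold higher in adult than in neonatal testis and 11.8-fold higher than in adult ovary. That probe set had the highest mean (255, against 245 and 229.5 for the next) only through its adult testis signal. Its other probe sets gave 1.88-fold to 3.53-fold over neonatal testis. In adult ovary and adult testis they gave 231 and 546, 84.1 and 165, and 246.5 and 400. None of them reached the call in either comparison, so both Kif3b calls depend on the probe set. Kif3a gave 1093, 1002, 1303.5, 844, 581 and 2504. It was highest in adult testis, 4.31-fold over adult ovary, which is past the call, and 2.97-fold over neonatal testis, which is not. Of its other probe sets 1 went from 417 in neonatal testis to 795.5 in adult testis, and the others went from 372 to 188 and from 309 to 167. In adult ovary they gave 324, 333 and 301 in the same order, so of these only the first was higher in adult testis. The call against adult ovary was kept under 7 of 8 alternative settings. With the mean of all probe sets it was lost, at a log2 ratio of -0.43 for adult ovary over testis.

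The remaining ciliary kinesins were not called. Kif24, which limits cilium growth at the centriole, gave 264.5 in adult testis and 87.4 to 119 elsewhere. Kif7, a regulator of Hedgehog signalling at the cilium tip, gave 180.1 to 243 on 5 arrays, and the adult testis array was at the floor. Kif6 was above the floor in adult testis alone, at 77.0.

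Intraflagellar transport genes encode the particles that the kinesin-2 motors pull. Of 15 measured, 5 were called higher in adult than in neonatal testis, against 10.7% of all genes: Ift172 (8.93-fold), Ift122 (7.31-fold), Wdr35 (6.89-fold), Ttc21b (5.95-fold) and Ift140 (4.26-fold). The other 10 were not called, though all 15 ratios were above 1, with a median of 1.79 on the log2 scale. In adult ovary 6 were called lower than in adult testis, against 10.9% of all genes. The median log2 ratio there was -1.81, against 0.35 for all genes. Kifap3, the subunit that joins the KIF3 motor to cargo, gave 919 in neonatal and 1107 in adult testis, which is not a call.

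**Figure D3:**
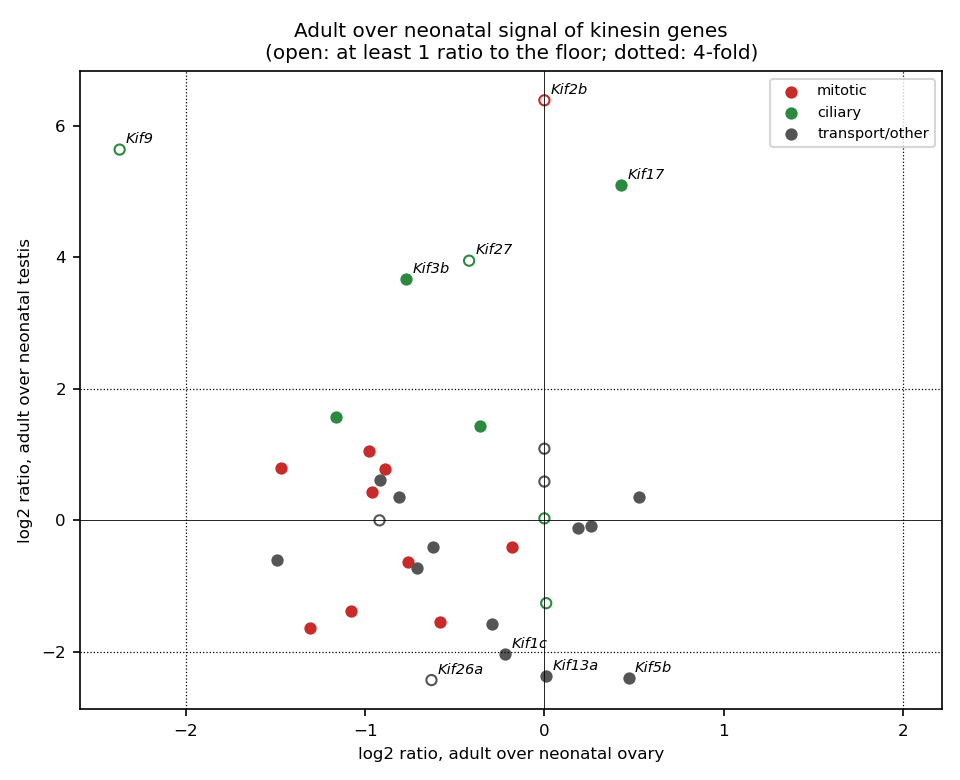
Log2 ratio of adult over neonatal testis (vertical axis) against adult over neonatal ovary (horizontal axis), 1 point per kinesin, coloured by class, with open points where a ratio is to the floor and dotted lines at 4-fold. Ciliary kinesins reach 5.64 in testis (Kif9), where the class median is 2.62 and the median of all genes -0.30.

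Mitotic kinesins were split in adult testis. Their median log2 ratio of adult over neonatal testis was 0.01 and that of adult ovary over testis -0.68, against -0.30 and 0.35 for all genes. For the 9 above the floor on both arrays, these medians were -0.41 and -0.03, against -0.50 and 0.54 for all genes on that basis. Adult testis was the brightest array for 4 of the 10 above the floor, near the 30.3% among all genes above it on 1 array or more. Kif2b, a kinesin-13 that takes microtubule ends apart at the kinetochore, gave 6296 in adult testis, with all 5 other arrays at the floor. It was at least 83.6-fold higher there than in neonatal testis or adult ovary. Its promoter window was also one of the 2 mitotic windows without a CHR.

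Kif18b, Kif20a and Kif20b, unlike Kif2b, were above the floor on all 6 arrays. Kif18b, a plus-end motor of astral microtubules, gave 431, 574, 419, 540.1, 226 and 927.5 in the same order. Kif20a, which moves the chromosomal passenger complex to the midzone, gave 668.5, 828, 661, 647, 238 and 1115. Kif20b, of the late midbody, gave 549, 710, 436.5, 466, 221 and 971. All 3 were lowest in adult ovary and highest in adult testis, with ratios of 4.11, 4.68 and 4.40 between them. In the testis alone the adult was above the neonatal array by less than the call. The 3 other probe sets of Kif20b were at the floor on all 6 arrays.

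Kif11, Kif22, Kif23 and Kif4 had lower signals on both adult arrays than on the neonatal array of the same gonad. Kif11 (Eg5, which slides spindle poles apart) gave 438 in neonatal and 150.2 in adult testis, and 264 and 177 in ovary. Kif22, the chromokinesin Kid, gave 3637, 4053, 4022, 3758, 2372 and 2427 by a probe set whose probes can bind other transcripts, 1.55-fold lower in adult than in neonatal testis. Its other probe sets gave 2.32-fold and 2.56-fold lower. Kif23 (MKLP1, of the central spindle) gave 836, 840.5, 864, 1021, 407 and 391. Kif4, a chromokinesin encoded on the X chromosome, gave 712.5 in neonatal and 229.8 in adult testis. None of these ratios was a call, and those of Kif22 and Kif23 in testis had the opposite sign with scaling to the hybridization controls. Kif22 and Kif4 have pseudogene copies in the RefSeq gene table, so their signals are uncertain.

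Kif18a, a kinesin that dampens chromosome oscillation, gave 456, 310, 245, 235, 126 and 316, the lowest in adult ovary. Kif2c (MCAK), which corrects kinetochore attachments, gave 1323, 1646, 981, 1114, 867 and 836 by the probe set used, close to each other on the adult arrays. A second Kif2c probe set gave 344, 408, 207.8, 288, 208.8 and 4919, 17.1-fold higher in adult than in neonatal testis. The third gave 76.3 to 98.7 on 5 arrays and 409 in adult testis, which is 4.53-fold. The probe set used has an x in its suffix, which marks probes that can bind other transcripts, and it was brightest only by mean (1128 against 1063). The ratio for Kif2c in adult testis thus depends on the probe set.

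In adult against neonatal ovary no mitotic kinesin was called. All 9 that were above the floor had a ratio below 1, with a median log2 ratio of -0.96, against -0.04 for all genes. Of 16 spindle partner genes 15 had a ratio below 1, with a median of -0.84, and so did 9 of 9 dividing-cell markers, with a median of -0.85. In the testis the dividing-cell markers had a median of -1.60, against -0.30 for all genes, and 7 of 9 had a ratio below 1. Ccna2 (10.4-fold), Mcm2 (5.43-fold), Mki67 (5.24-fold) and Ube2c (4.38-fold) were called lower, against 10.3% of all genes. The other 2 were higher in adult than in neonatal testis, Bub1 from 1017 to 2013 and Ccnb2 from 2222 to 3713. Spindle partners gave 0 called higher and 1 lower in the testis (Racgap1, the partner of KIF23 in centralspindlin, at 5.05-fold). Their median was -0.44, with 5 of 16 ratios above 1. Aurka, a spindle pole kinase, was 6.31-fold lower in adult ovary than in adult testis.

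**Figure D4:**
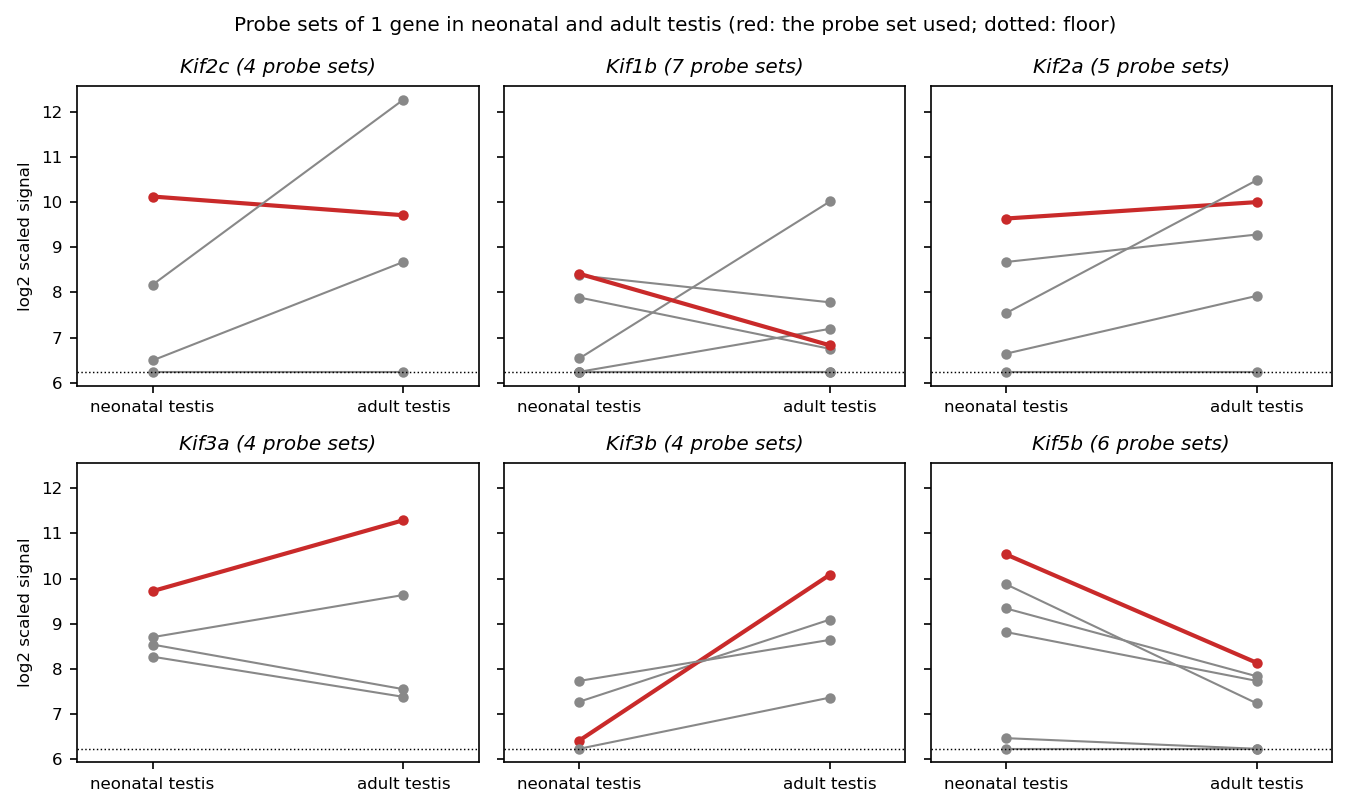
Log2 scaled signal in neonatal and adult testis for every probe set of Kif2c, Kif1b, Kif2a, Kif3a, Kif3b and Kif5b, 1 line per probe set, in red for the one used, with the floor dotted. A second Kif2c probe set climbs from 288 to 4919 while the one used goes from 1114 to 836.

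Of the 17 transport kinesins 4 were called lower in adult than in neonatal testis, against 10.3% of all genes, and 0 higher, against 10.7%. Adult testis was the dimmest array for 9 of the 16 above the floor (56.2%), near the 47.4% among all genes above it on 1 array or more. Their median log2 ratio was -0.40 for adult over neonatal testis and 0.31 for adult ovary over testis, close to the -0.30 and 0.35 of all genes. The 4 called members were picked for a large ratio, so their distance from these medians is set by the call. Kif5b, the ubiquitous heavy chain of conventional kinesin, gave 1054, 1089.6, 951, 1483, 1314 and 281. It was lowest in adult testis, 5.27-fold below neonatal testis and 4.67-fold below adult ovary, and 3 of its other probe sets gave 2.12-fold, 2.83-fold and 6.21-fold below neonatal testis. Of the remaining probe sets 1 gave a bound of 1.18-fold, from 88.6 to the floor, and 1 was at the floor on all arrays.

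Kif13a, which carries mannose-6-phosphate receptors and endosomes, gave 614, 564, 609.9, 425, 615 and 82.2. It was 5.17-fold lower in adult than in neonatal testis and 7.48-fold lower than in adult ovary. Of its 4 other probe sets 2 gave bounds of 1.07-fold and 1.29-fold below neonatal testis and 2 were at the floor on both testis arrays. Each of the 2 calls for Kif13a was kept under 5 of 8 alternative settings, with log2 ratios of -2.37 to -0.31 and of 0.84 to 2.90. Kif1c, a kinesin-3 of vesicles and podosomes, gave 598, 660, 936, 566, 806 and 138, which is 4.09-fold and 5.83-fold lower. The first of these calls was kept under 2 of 8 alternatives, and another probe set gave at least 2.43-fold. Kif26a, a kinesin without motor activity that acts in enteric neuron signalling, gave 272, 339, 207, 405 and 134 on the first 5 arrays and fell under the floor on the adult testis array. It was at least 5.38-fold lower there than in neonatal testis. In all 4 the adult testis array was the lowest of the 6, and all 4 were picked for a low signal there against neonatal testis.

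Light chains and adaptors were looked at beside KIF5B, since conventional kinesin binds cargo through them. Klc1, the common light chain, gave 643 in neonatal and 121 in adult testis, 5.32-fold lower, and was 6.64-fold higher in the adult ovary than in the testis. Klc3, a light chain known from the sperm midpiece, gave 82.3 in neonatal and 601 in adult testis, 7.30-fold higher, with the adult ovary at the floor. Klc4 gave 509.7 and 631. Of 10 cargo adaptors measured, 0 were called in the testis comparison, where 10.7% of all genes were higher and 10.3% lower. In adult ovary over testis 1 was called, near the 11.9% of all genes higher there. This was Trak2 (a mitochondrial adaptor), at 5.68-fold higher in ovary.

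The other transport kinesins were not called. Kif2a, a kinesin-13 of neurons and spindle poles, gave 918, 688, 827, 795, 470.2 and 1022, and Kif1b, a mitochondrial and synaptic vesicle kinesin, gave 621, 553.5, 350.5, 341, 286 and 114. Both had another probe set past 4-fold in adult over neonatal testis, from 186 to 1430.2 for Kif2a (7.69-fold) and from 93.0 to 1034 for Kif1b (11.1-fold). Kif21a gave 137.5 to 198 by its main probe set, and another went from 77.8 to 368 (4.73-fold). Kif5c, a neuronal heavy chain, gave 170.7 in adult testis, and another of its probe sets was at the floor in neonatal testis and gave 277 in adult, at least 3.68-fold. Kif3c gave 438 to 505, Kif13b 420 to 589.5, and Kif1a, Kif5a and Kif12 were near or at the floor.

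Several kinesins gave different ratios by different probe sets. In adult over neonatal testis, 6 of 15 kinesins with at least 2 probe sets above the floor (40%: Kif1b, Kif2a, Kif2c, Kif3a, Kif3b and Kif5c) had probe sets whose ratios were 4-fold or more apart, against 1046 of 5721 genes (18.3%). A ratio to the floor was taken as a bound in this count. The count takes the largest gap within a gene, which can grow with its number of probe sets. Kinesins and all genes were not matched for that number. Probe sets of 1 gene read different parts of its transcript. The scatter of log2 ratios among probe sets of 1 gene was estimated from pairs of them, 1 pair per gene. As a robust SD per probe set it was 0.63 in this comparison (3732 pairs), against 0.18 between the fetal gonads (4721 pairs).

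**Figure D5:**
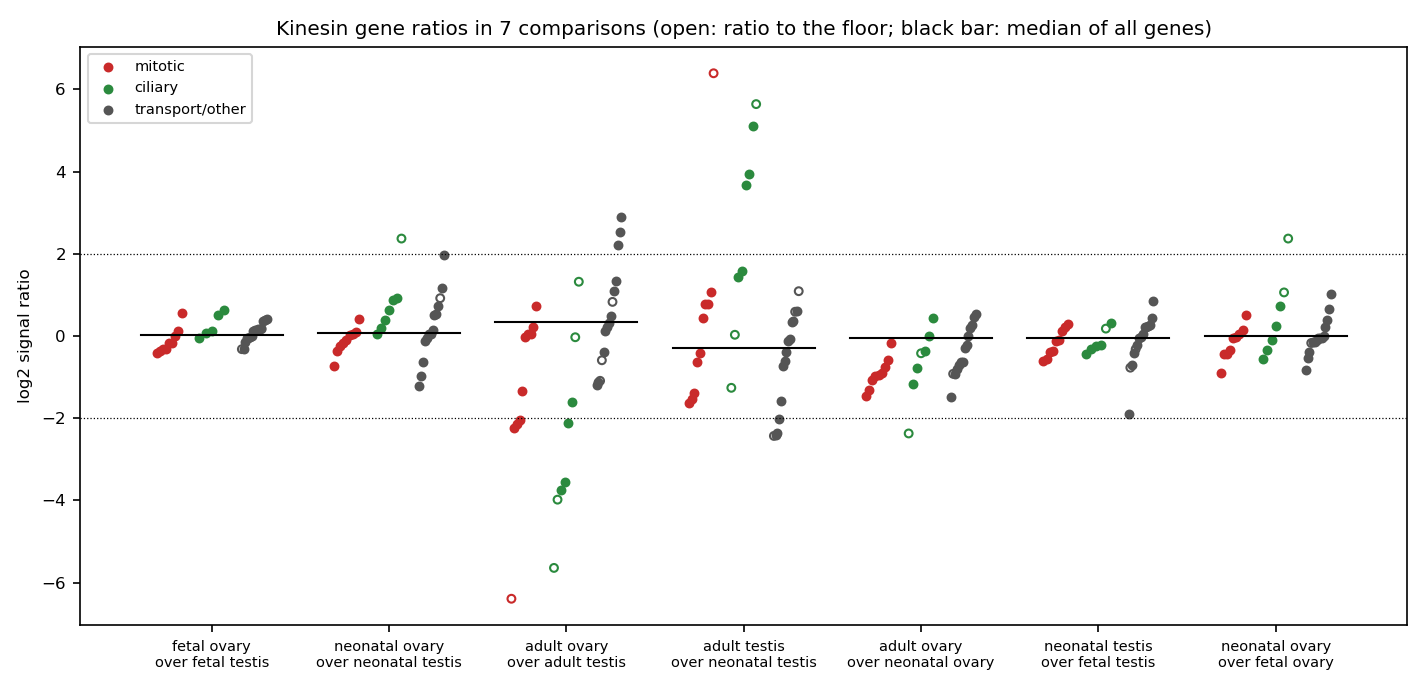
Log2 ratios of each kinesin in the 7 comparisons, 1 point per gene coloured by class, with 4-fold as dotted lines, the median of all genes as a black bar and open points for ratios to the floor. No kinesin passes the call between the fetal gonads, where ratios run from -0.41 to 0.64, while 12 pass it between the adult gonads.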

How the data were processed

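Total RNA from each gonad was labelled with biotin and read on 1 Affymetrix Mouse 430 2.0 array per group, 6 arrays in all. The deposited values are intensity per probe set on a linear scale, made with GCOS version 1 per the submitters' processing notes. The sources used here do not give the background correction, the summarization of probes or any scaling of arrays. Of 45101 probe sets, 35890 had a gene symbol in the platform annotation. Each array was multiplied so that its mean without the top and bottom 2% matched the mean over arrays (factors 0.913 to 1.26). Signals were set to a floor at their median, 75.3, and ratios taken. The steps were tested on simulated data with Python 3.11.15, pandas 2.3.3, NumPy 2.4.6 and matplotlib 3.10.9. With 1 array per group there is no test, and a call is a fold of 4 or more. The kinesin list, the gene lists and the motifs were chosen with earlier results of these data known, and the CRE was added after the values were seen. Full values are given for members called in at least 1 comparison and for the member with the highest mean signal in each class, with others by value or range. Alternatives tried were signals as deposited, quantile normalization, scaling to hybridization controls, and floors at the 25th and 75th percentile. Others were 16 added without a floor, the mean of all probe sets, and no probe sets with an a, s or x suffix. Genes with only such probe sets kept them.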

Additional observations from a re-analysis of the deposited data

Results flagged for a closer look

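Kif9 moved in opposite directions with age in the gonads of each sex. Its log2 ratio of adult over neonatal testis was 5.64 and of adult over neonatal ovary -2.37, both bounds set by the floor, and the difference between them was not tested. Probe sets not used for the values above gave a signal at least 4-fold higher in adult than in neonatal testis where the probe set used did not. The log2 ratios were 4.09 and 2.18 for Kif2c, 3.48 for Kif1b, 2.94 for Kif2a and 2.24 for Kif21a.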

How the results depend on the processing

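Among class medians and counts of called kinesins under the alternatives, 125 stayed within 1 robust SD between probe sets (medians) or 1.5 times (counts) of the main value, 31 moved further and 4 medians changed sign. Among ratios of called kinesins 133 stayed, 59 moved and 0 changed sign. With scaling to hybridization controls, the ciliary median (log2) was -3.96 in adult ovary over testis and 3.95 in adult over neonatal testis. The mitotic median in adult over neonatal testis was 1.08. The transport medians were -0.82 and 1.10, the opposite sign of the main values. The median of all genes above the floor on both arrays changed sign too, from 0.54 to -0.41 and from -0.50 to 0.77. Calls became 0 higher and 14 lower in adult ovary over testis, 12 higher and 0 lower in adult over neonatal testis, 2 higher in neonatal ovary over testis, and 1 lower in neonatal over fetal testis. With the floor at the 75th percentile, the ciliary medians were -2.11 and 1.80 and the mitotic median -0.36. Calls were 0 higher and 4 lower, then 3 higher and 1 lower, 0 lower in adult over neonatal ovary, 0 higher in neonatal over fetal ovary and 0 higher in neonatal ovary over testis. With the mean of all probe sets, the ciliary median in adult ovary over testis was -1.62, the mitotic median in adult over neonatal testis -0.06, and calls were 1 higher in adult ovary over testis and 1 lower in adult over neonatal testis. Without probe sets with an a, s or x suffix, the ciliary medians were -3.56 and 3.67. Kif6 was at the floor by its other probe set and did not enter these medians. With the floor at the 25th percentile, 5 were higher in adult ovary over testis, 3 lower in adult over neonatal ovary, 2 higher in neonatal ovary over testis and 1 lower in neonatal over fetal testis. With 16 added, 2 were lower in adult over neonatal ovary, 2 higher in neonatal ovary over testis and 1 lower in neonatal over fetal testis, and signals as deposited gave 1 lower there. Scaling alternatives kept the probe set used. Kif2b, Kif9 and Kif17 were called under 8 of 8 alternatives in both adult comparisons, and Kif1c in adult over neonatal testis under 2 of 8. The causes were not tested. No paired analysis was possible because each group has 1 array, and no array could be left out.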

Other observations

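Kinesins outside the symbol rule gave values of their own. Cenpe, the kinetochore kinesin, gave 580, 833.5, 616, 506, 222 and 797 in the order of the arrays above. The minus-end motor Kifc1 gave 145 to 313 on 5 arrays and 89.3 in adult testis, and Kifc3 gave 709 in adult testis and 303.5 to 485.5 elsewhere. None of these was called in any comparison made here, and Kifbp, which binds kinesin motor domains, gave 1163 to 1811 over the 6 arrays.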
